A study of Mus musculus with 18 samples.

Results

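The nuclear genes *Hspd1*, *Hspe1*, *Hspa9*, *Dnaja3*, *Lonp1*, *Clpp*, *Clpx*, *Yme1l1* and *Afg3l2* encode chaperones and proteases that work inside mitochondria. They were listed by symbol, under a rule that uses no measured value though earlier results of these data were known when it was made, and all 9 were found among the 55469 genes of each deposited table. Their RNA was measured by RNA sequencing of the ventral and lateral prostate lobes of male mice on the background labelled C56NL/6N. *Elac2* +/+ mice (WT), homozygous mice in which Cre driven by the prostate epithelial *Pb* promoter removed exon 8 of *Elac2* (KO), and mice homozygous throughout the body for the CRISPR-made Ala537Thr variant (A537T) were compared at 10 and at 30 weeks of age, with 3 libraries in each of the 6 groups. KO tissue therefore still holds stromal and other cells in which *Elac2* is intact, whereas every cell of A537T tissue carries the variant. None of these mice carried the TRAMP transgene.

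Most mitochondrial proteins are made in the cytosol and enter the organelle unfolded, so that folding and clearance inside the matrix have to keep pace with import. When misfolded proteins build up in the matrix, or when subunits made from the mitochondrial genome and those made from nuclear genes are out of balance, cells can raise the transcription of matrix chaperones and proteases, a programme named the mitochondrial unfolded protein response. In mammals it has been tied to the transcription factors CHOP (encoded by *Ddit3*), ATF4 and ATF5, and *Hspd1*, *Hspe1*, *Clpp* and *Lonp1* are its usual readouts. ELAC2 is the RNase Z that trims the 3′ ends of tRNA precursors in the nucleus and in mitochondria, and loss of it affects the RNAs from which mitochondrial subunits are translated, so the comparison of each mutant line with WT asks whether this programme was switched on.

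The promoter windows of these genes are shown because CHOP and heat shock elements are the sequences most often linked to this programme. Windows from 250 bases before to 50 bases after the RefSeq start (GRCm38.p6) were matched for 7 of the 9 genes, and the 8 windows were searched on both strands for TGCAAT (the core of the CHOP element), TGATGNAA (the CARE bound by ATF4 and its partners, which can overlap TGCAAT where N is C and a T follows) and GAANNTTC (the core of the heat shock element, the same on both strands). *Hspd1* and *Hspe1* stand head to head on opposite strands of chromosome 1 and their gene models overlap by 112 bases, so that 1 stretch of DNA serves both. The *Hspe1* window (chr1:55087898-55088197, + strand) holds TGCAAT from 199 bases and GAACCTTC from 84 bases before the start, and one of the 2 *Hspd1* windows (chr1:55087883-55088182, - strand) reads the same matches from the other side. The windows of *Lonp1* (chr17:56626854-56627153, - strand) and *Clpp* (chr17:56990014-56990313, + strand), the proteases most used as readouts, are printed for contrast and held no match to the 3 motifs. Capitals mark the matches.
Hspe1: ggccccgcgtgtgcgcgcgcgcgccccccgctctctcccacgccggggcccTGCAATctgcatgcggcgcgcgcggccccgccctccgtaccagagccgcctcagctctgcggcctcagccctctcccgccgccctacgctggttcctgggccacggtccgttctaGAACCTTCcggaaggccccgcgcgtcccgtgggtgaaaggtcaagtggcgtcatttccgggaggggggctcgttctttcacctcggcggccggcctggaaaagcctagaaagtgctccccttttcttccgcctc
Lonp1: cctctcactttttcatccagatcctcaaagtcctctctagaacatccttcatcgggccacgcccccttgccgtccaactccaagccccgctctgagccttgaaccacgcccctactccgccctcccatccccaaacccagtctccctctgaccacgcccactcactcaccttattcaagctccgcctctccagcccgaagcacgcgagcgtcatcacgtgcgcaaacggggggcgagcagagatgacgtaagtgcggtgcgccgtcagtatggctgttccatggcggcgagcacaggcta
Clpp: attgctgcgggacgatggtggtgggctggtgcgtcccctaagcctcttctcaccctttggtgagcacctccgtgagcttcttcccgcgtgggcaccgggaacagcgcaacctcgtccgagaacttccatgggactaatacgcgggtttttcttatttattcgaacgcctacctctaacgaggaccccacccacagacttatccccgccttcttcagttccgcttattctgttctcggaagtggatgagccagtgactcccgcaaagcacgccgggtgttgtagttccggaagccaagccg

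The other *Hspd1* window and those of *Yme1l1*, *Clpx* and *Dnaja3* also held no match to these letters. Among all 32851 mouse promoter windows in the same table, 8.4% held the CHOP core, 3.97% the CARE and 7.86% the heat shock core, and 0.685% held both the CHOP and the heat shock core, as the *Hspe1* window does. A match describes the letters only.

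Values are normalised counts. The authors obtained them by dividing each library's gene counts by its size factor within a table of 3 WT and 3 mutant libraries. In each column they are whole multiples of 1 unit, here called a read, though the authors' gene counts are estimates. The recovered reads of a WT library differed between its 2 tables for 53.6% to 64.1% of the genes with reads in either. Among the 9 genes the largest difference was 7.5%, for *Yme1l1* in 11AF (1051 in the KO and 1130 in the A537T table). The 18 libraries held between 6569642 and 11225281 recovered reads (median 8586877), and the 9 genes were covered by between 89 reads (*Clpp*) and 1798 reads (*Hspa9*) in a library. *Elac2* itself was at 124, 142 and 166 normalised counts in 10-week-old WT and at 119, 111 and 115 in KO libraries, and its difference did not pass the test in any comparison (adjusted p between 0.325 and 0.796, limma). Luminal prostate markers were counted in every library, but not evenly. They made up 0.503% to 3.88% of all normalised counts in 10-week-old KO against 3.73% to 13.4% in WT of that table. In 10-week-old A537T they made up 7.94% to 10.4%. At 30 weeks they made up 4.86% to 14.3% in KO and 4.51% to 14.8% in A537T, against 7.63% to 14.8% in WT of the KO table. RNA of other tissues was also present: 32 skeletal muscle markers made up 4.18%, 6.88% and 13.3% of the counts of 10-week-old WT libraries 10AF, 11AF and 12AF, whereas the KO libraries of that age held 0.149% to 2.21% and those of A537T 1.77% to 4.57%. At 30 weeks their share was at most 0.116%, with *Tnnc1* and *Pvalb* at 0 in all 3 WT libraries. Seminal vesicle markers, 10 of 11 of which were matched, made up 6.56% to 10.3% of the counts of all 3 10-week-old KO libraries, 8.53% and 6.32% of 30-week-old KO libraries 4AF and 6AF, and 7.24% and 9.17% of 30-week-old A537T libraries 7AF and 9AF, but only 7.13e-05% of KO library 5AF and 7.99e-05% of A537T library 8AF. WT held 0.000818% to 4.64% of them at 10 weeks and at most 0.000353% at 30 weeks. Plasma and B cell markers made up 0.0228% to 0.104% of counts in 30-week-old A537T against 0.00669% to 0.0112% in WT of that table. Levels below are those of a mixed tissue, in which fewer cells of a type and less RNA per cell cannot be told apart.

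No rise or fall of any of the 9 genes passed the test in KO or A537T prostates at either age. Each gene passed the filter on low values (a mean of 10 normalised counts) in each table, and with limma on log2(normalised count + 1) and Benjamini-Hochberg adjustment over all genes tested, 0 of 9 were called at an adjusted p under 0.05 in any of the 4 comparisons. No gene of the whole tables was called either: 0 of 15089 in 10-week-old KO (0%), 0 of 15131 in 10-week-old A537T (0%), 0 of 14729 in 30-week-old KO (0%) and 0 of 14789 in 30-week-old A537T (0%). At an unadjusted p under 0.05, 0 of the 9 passed in each comparison, against 19.4%, 6.43%, 11% and 13.6% of all genes. edgeR and DESeq2 on the recovered reads also called 0 of the 9, although DESeq2 called 4.74%, 0.595%, 1.93% and 3.22% of all genes. At 10 weeks the mutant and WT libraries overlapped for each of the 9, whereas 26% of all genes tested in KO and 11.9% in A537T did not overlap. At 30 weeks the same held except for *Hspd1* in KO and *Clpx* and *Yme1l1* in A537T, and no gene of the 9 lay above all WT libraries in KO, as 7.92% of all genes did.

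The precision of these values limits how large an induction could have gone unseen in the mixed tissue as a whole. A change confined to some of its cells was not measured apart. On the log2(normalised count + 1) scale, the upper end of the 95% interval of the 9 genes lay between a 1.05-fold and a 1.28-fold level of WT in 10-week-old KO, between 1.07-fold and 1.42-fold in 10-week-old A537T, between 1.04-fold and 1.69-fold in 30-week-old KO and between 1.03-fold and 1.54-fold in 30-week-old A537T. A rise of *Hspd1* above 1.11-fold, 1.33-fold, 1.07-fold or 1.16-fold of WT, in that order, lies outside its interval. Each interval is that of 1 gene and allows for the spread between the 3 libraries of each group only. It makes no allowance for differences in muscle or seminal vesicle RNA. With a skeletal muscle score as a covariate, the highest log2 fold change of the 9 in 10-week-old A537T was 0.43 (0.03 without it). It was that of *Hspd1* or *Hspe1*, as the values of the other genes under this score lay lower. In that fit 1 of the 9 passed at an unadjusted limma p under 0.05, beside 975 of all 15131 genes. The smallest adjusted p of the 9 was 0.760 (limma). In 10-week-old KO it was -0.03 (0.02 without it).

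**Figure D1:**
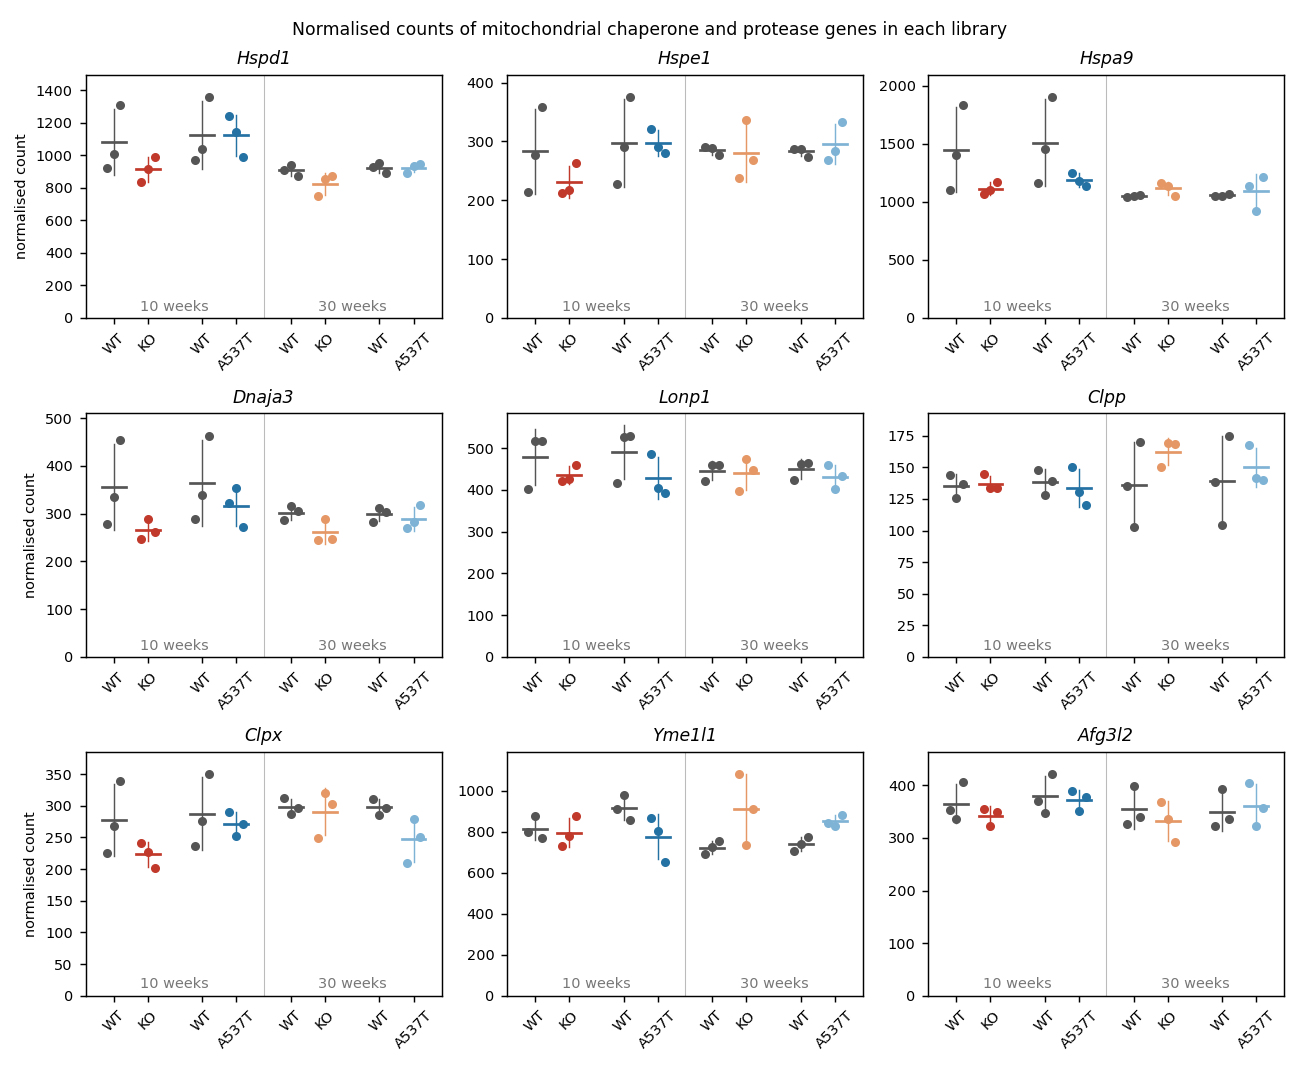
Normalised count (vertical axis, from 0) of each gene in each library: WT grey, KO red and orange, A537T blue, with the mean as a bar and 1 SD as a line (n = 3); each mutant group stands to the right of the WT libraries of its own table. The KO and A537T points lie among or beside the WT points in each panel, and the 10-week-old WT libraries spread widely for *Hspa9* (1104 to 1834) and *Dnaja3* (278 to 454).

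*Hspd1* encodes HSP60, the ring-shaped chaperonin of the matrix, and *Hspe1* encodes HSP10, the lid that closes it. *Hspd1* (ENSMUSG00000025980.14, chr1:55077835-55088243, - strand) was at 923, 1006 and 1309 normalised counts in the 10-week-old WT libraries and at 835, 917 and 987 in KO. The groups overlapped, with KO libraries 13AF and 14AF below all 3 WT libraries (log2 fold change -0.23 ± 0.16 SE, adjusted p = 0.441, limma). In 10-week-old A537T it was at 1241, 1141 and 989, inside the range of WT in that table (974 to 1360). At 30 weeks the WT libraries were close together, at 912, 939 and 873, and KO stood at 749, 856 and 871. KO therefore lay just below all 3 WT libraries, as 8.41% of all genes tested did, and the difference was small and did not pass the test (log2 fold change -0.14 ± 0.10 SE, adjusted p = 0.622, limma). In 30-week-old A537T the mean was 923 ± 28.8 (SD, n = 3) against 922 ± 31.8 in WT. Leaving out KO library 4AF, the lowest of the group, brought the 30-week KO difference to -0.07.

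*Hspe1* (ENSMUSG00000073676.4, chr1:55088132-55091307, + strand) overlapped WT in each comparison. It was at 213, 277 and 358 normalised counts in 10-week-old WT and at 213, 217 and 263 in KO, and at 321, 290 and 281 in A537T against 227, 290 and 376 in WT of that table. At 30 weeks it was at 290, 289 and 276 in WT and at 237, 336 and 269 in KO, with the KO libraries on both sides of WT. The ratio of *Hspe1* to *Hspd1* counts within a library, which no scaling between libraries touches, was 0.260 ± 0.0252 (SD, n = 3) in 10-week-old WT and 0.253 ± 0.0153 in KO, and 0.314 ± 0.0055 in 30-week-old WT against 0.339 ± 0.0465 in KO. In A537T it was 0.266 ± 0.0157 at 10 weeks and 0.320 ± 0.0279 at 30 weeks, and no difference from WT in this ratio had an exact permutation p under 0.6. The 2 genes share the DNA between them, as printed above, but were counted by strand.

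*Hspa9* encodes mortalin, the matrix HSP70 that pulls proteins in through the inner membrane and folds them, and *Dnaja3* encodes TID1, a DnaJ partner of it. Both had the largest 10-week differences of the set in KO. *Hspa9* (ENSMUSG00000024359.10), the most abundant of the 9 by count, was at 1104, 1409 and 1834 in 10-week-old WT and at 1065, 1105 and 1175 in KO. The lowest WT library, 10AF, lay within the KO range and the highest, 12AF, was the library with most skeletal muscle RNA (log2 fold change -0.35 ± 0.19 SE, adjusted p = 0.344, limma). A537T libraries stood at 1253, 1181 and 1137 against 1165, 1460 and 1908 in WT of their table (log2 fold change -0.32 ± 0.19 SE, adjusted p = 0.761, limma). Without 12AF the KO difference was -0.16, and without 10AF it was -0.53 (adjusted p = 0.0502). At 30 weeks, when muscle RNA was low in every library, the WT values were 1043, 1048 and 1056 and those of KO 1166, 1134 and 1051. The KO mean of 1117 ± 59.0 (SD, n = 3) was above the WT mean of 1049 ± 6.74, with overlapping groups (adjusted p = 0.729, limma).

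*Dnaja3* (ENSMUSG00000004069.17, chr16:4639989-4707695, + strand) was at 278, 334 and 454 normalised counts in 10-week-old WT and at 246, 288 and 261 in KO (log2 fold change -0.40 ± 0.20 SE, adjusted p = 0.309, limma). Without WT library 12AF the difference was -0.20, and without 10AF it was -0.56 (adjusted p = 0.0663). At 30 weeks it was at 286, 316 and 305 in WT and at 245, 289 and 248 in KO. The ratio of *Dnaja3* to *Hspa9* was 0.288 ± 0.0137 (SD, n = 3) in 30-week-old WT and 0.234 ± 0.0227 in KO, and the groups did not overlap. This is the only one of 16 partner ratios in which they did not, and its two-sided exact permutation p of 0.1 is the smallest that 3 libraries against 3 can give (Benjamini-Hochberg adjusted p = 0.686 over the 16). In 30-week-old A537T the ratio was 0.268 ± 0.0346, overlapping WT. The gene model of *Dnaja3* overlaps *Vasn* on the same strand by 10814 bases and *Coro7* on the other by 39789 bases, so reads in the shared stretch of *Vasn* may have been assigned to either gene.

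*Lonp1* encodes the LON protease, which removes oxidised and surplus matrix proteins, and *Clpp* and *Clpx* encode the peptidase barrel and the unfolding ring of the CLPXP protease. *Lonp1* (ENSMUSG00000041168.10, chr17:56614297-56626887, - strand) was at 402, 516 and 518 in 10-week-old WT, at 422, 426 and 460 in KO, and at 486, 405 and 392.4 in A537T against 417, 527 and 530.5. At 30 weeks it was at 421, 460 and 459 in WT and at 397, 475 and 448 in KO, and A537T was at 459, 402 and 434. Its log2 fold change lay between -0.20 and -0.02 over the 4 comparisons, and the mutant groups overlapped WT in each.

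*Clpp* (ENSMUSG00000002660.8, chr17:56990305-56996188, + strand) was the least covered gene. It was at 144, 126 and 137 in 10-week-old WT and at 144, 133 and 134 in KO, which is no difference beyond the spread (log2 fold change 0.02 ± 0.14 SE, adjusted p = 0.946, limma). At 30 weeks the WT libraries ranged most, at 135, 102 and 170, and KO stood at 150, 169 and 169, above the mean of WT in 3 of 3 libraries but inside its range (log2 fold change 0.28 ± 0.20 SE, adjusted p = 0.616, limma). WT libraries 2AF and 3AF decide the size of this difference, which was 0.10 without the first and 0.46 without the second. *Clpx* (ENSMUSG00000015357.10, chr9:65294260-65330658, + strand) was at 225, 268 and 339 in 10-week-old WT and at 241, 227 and 202 in KO, and at 312, 287 and 297 in 30-week-old WT and 248, 319 and 302 in KO. In 30-week-old A537T it was at 210, 280 and 251 against 311, 286 and 297, below all WT libraries, as 9.4% of genes tested were (log2 fold change -0.28 ± 0.14 SE, adjusted p = 0.409, limma). The ratio of *Clpp* to *Clpx* was 0.455 ± 0.11 (SD, n = 3) in 30-week-old WT, 0.563 ± 0.0379 in KO and 0.622 ± 0.156 in A537T, with overlapping groups (exact permutation p = 0.3 in both lines).

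*Yme1l1* and *Afg3l2* encode the proteases of the inner membrane: YME1L1 faces the intermembrane space, and AFG3L2 faces the matrix, where it also matures a ribosomal protein. *Yme1l1* (ENSMUSG00000026775.9, chr2:23156369-23199260, + strand) was at 800, 875 and 767 in 10-week-old WT and at 733, 780 and 875 in KO, and at 868, 805 and 654 in A537T against 910, 977 and 860. At 30 weeks it was at 690, 723 and 753 in WT, and KO stood at 1080, 737 and 912 in libraries 4AF, 5AF and 6AF (log2 fold change 0.32 ± 0.15 SE, adjusted p = 0.484, limma). The high KO libraries, 4AF and 6AF, were those with seminal vesicle RNA, and 5AF, which had almost none, lay within WT. In 30-week-old A537T it was at 841, 829 and 884 against 707, 740 and 773, above WT in 3 of 3 libraries, as 9.18% of genes tested were (log2 fold change 0.20 ± 0.09 SE, adjusted p = 0.383, limma). There library 8AF, without seminal vesicle RNA, was at 829 and also above WT. Without KO library 5AF the 30-week KO difference was 0.46 (adjusted p = 0.0607, limma), without 4AF it was 0.18, and with the seminal vesicle score as a covariate it was 0.05. As 30-week-old WT held almost no seminal vesicle RNA, the fit with the score rests mainly on 5AF. The part of seminal vesicle RNA in this difference was not tested.

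*Afg3l2* (ENSMUSG00000024527.10) had the narrowest range of log2 fold changes of the 9. They were -0.09, -0.02, -0.10 and 0.04 in 10-week-old KO and A537T and in 30-week-old KO and A537T. Its group means lay between 332 ± 38.0 and 379 ± 37.9 normalised counts (SD, n = 3), and mutant and WT libraries overlapped in each comparison. The ratio of *Yme1l1* to *Afg3l2* was 2.05 ± 0.209 in 30-week-old WT and 2.75 ± 0.49 in KO, with overlapping groups (exact permutation p = 0.2), and 2.38 ± 0.264 in A537T.

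**Figure D2:**
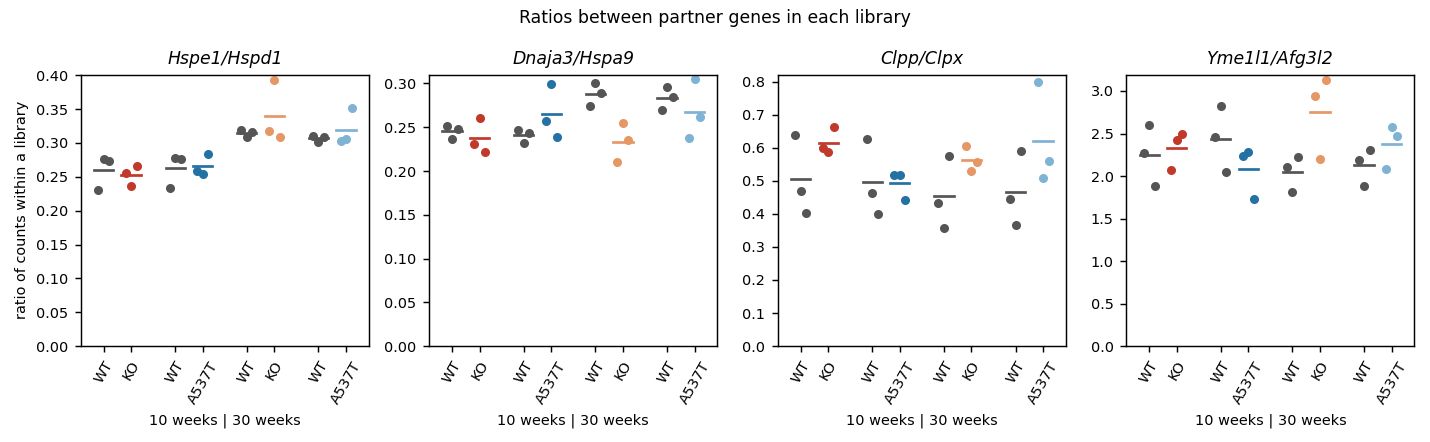
Ratio of the counts of partner genes within each library (vertical axes, from 0), with WT in grey, KO in red and orange and A537T in blue, 1 point per library and a bar at the mean of 3. *Dnaja3* to *Hspa9* in 30-week-old KO (0.210 to 0.255) lies below WT (0.274 to 0.301); in the other panels and comparisons the groups overlap.

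As RPKM, recovered reads per kilobase of the principal transcript and relative to the reads of the library, *Hspd1*, *Hspe1* and *Hspa9* were the highest 3 of the 9 in each group. In 30-week-old WT of the KO table *Hspd1* was at 41.6 ± 0.756 RPKM, *Hspe1* at 40.9 ± 1.21 and *Hspa9* at 38.2 ± 1.32 (SD, n = 3), and the remaining 6 lay between 11.5 (*Clpx*) and 17.04 (*Yme1l1*). The ranges of *Hspd1* and *Hspe1* overlapped, as did those of each neighbouring pair from *Yme1l1* down to *Clpx*. In 10-week-old WT *Hspa9* was at 52.5 ± 6.62 RPKM and *Hspd1* at 49.5 ± 2.39, and *Hspe1*, at 40.4 ± 5.35, was below both. These ages are set side by side without a test, and their WT libraries differed in muscle RNA.

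**Figure D3:**
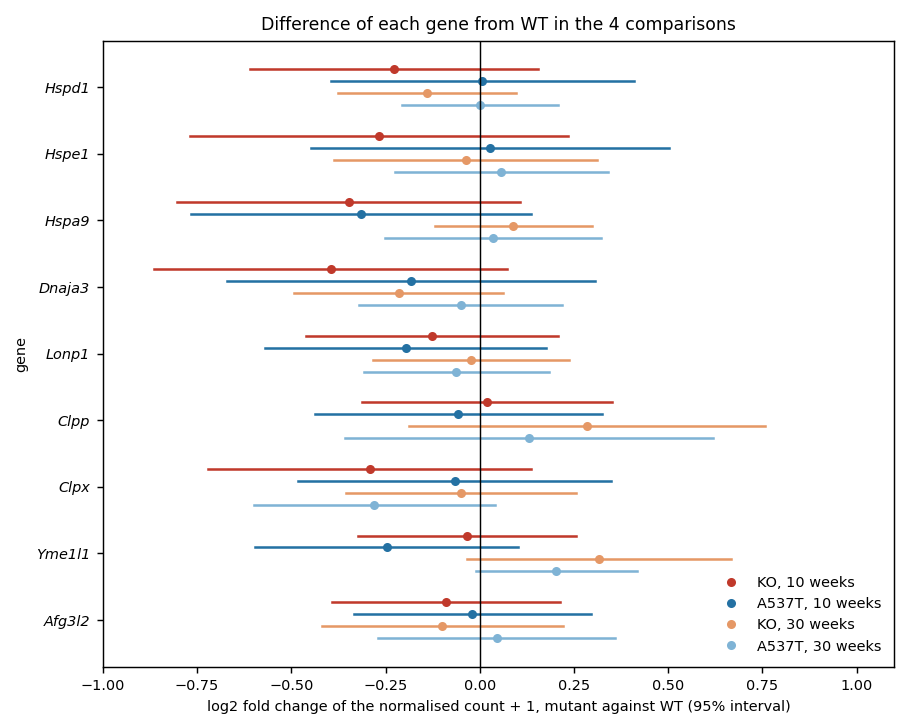
Log2 fold change against WT (horizontal axis, on normalised count + 1) of each gene (vertical axis) with its 95% interval, 1 colour per comparison. Each of the 36 intervals includes 0; in 10-week-old KO 8 of 9 points lie below 0 and below the median of all genes tested (-0.01), and with all libraries scaled to the same total 8 of 9 again lie below that median, then at 0.20.

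Described as a group, 8 of 9 log2 fold changes were below 0 in 10-week-old KO, with a median of -0.23 beside -0.01 over all genes tested, of which 49.4% were above 0. In 10-week-old A537T 7 of 9 were below 0 (median -0.07, beside 0.01 over all genes, of which 51.5% were above 0), in 30-week-old KO 6 of 9 (median -0.04, beside -0.01, with 49.1% above 0) and in 30-week-old A537T 3 of 9 (median 0.04, beside -0.01, with 49.3% above 0). These values share their WT libraries between the KO and A537T lines of an age. Scaling every library to the same total shifts all genes alike, by which the median of all genes in 10-week-old KO moved to 0.20 and that of the 9 genes to -0.02. Relative to the median of all genes, the median of the 9 was therefore at -0.22 under both scalings, with 8 of 9 below it in each. In 10-week-old A537T the same scaling moved all genes to 0.15 and the 9 genes to 0.07, and the 9 stood at -0.08 relative to all genes under both.

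At 10 weeks the level of the 9 genes rose with the share of skeletal muscle RNA among the WT and among the A537T libraries. The order of the KO libraries did not follow it, though 13AF and 15AF held nearly the same share. Across the groups of the KO table, WT libraries 11AF and 12AF, with most muscle RNA, were the highest, and 12AF was also the highest of the A537T table. The mean log2 level of the 9 genes was 8.62, 8.80 and 9.03 in WT libraries 10AF, 11AF and 12AF, in the order of their muscle marker shares. In KO libraries 13AF, 14AF and 15AF, with muscle shares of 0.161%, 2.21% and 0.149%, it was 8.59, 8.61 and 8.67, so the library with least muscle RNA was the highest and reached into the range of WT. In A537T libraries 16AF, 17AF and 18AF, with muscle shares of 4.57%, 3.43% and 1.77%, it was 8.88, 8.76 and 8.65, and 16AF lay above WT library 10AF of that table (8.70), which held a similar muscle share of 4.12%. Without 12AF the median of the 9 log2 fold changes in 10-week-old KO was -0.08 and in A537T 0.01. With the muscle score as a covariate it was -0.11 in KO and 0.07 in A537T, where 8 of 9 values were then above 0, and 0 of 9 were called in either line. The muscle shares of the KO and WT libraries did not overlap, so in KO that fit can hardly tell the score and genotype apart. The part of muscle RNA in these values was not tested further.

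**Figure D4:**
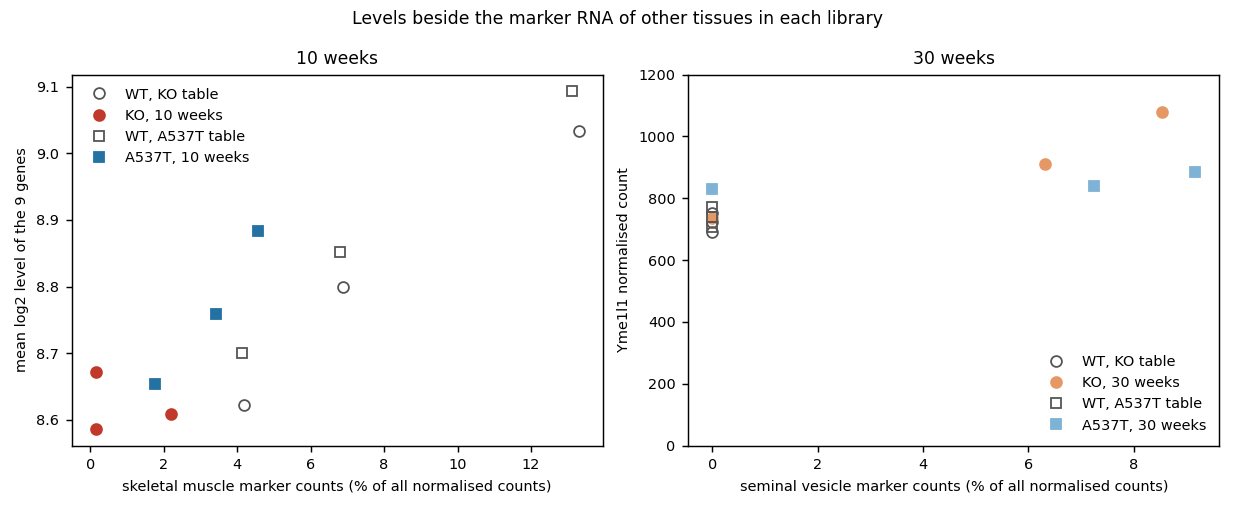
Left, mean log2 level of the 9 genes (vertical axis, not from 0) against the share of skeletal muscle marker counts in each 10-week-old library; right, *Yme1l1* normalised count against the share of seminal vesicle marker counts at 30 weeks. Open symbols are WT, drawn once per table, and filled symbols KO (circles) and A537T (squares); library 12AF, with 13.3% muscle counts, is the highest on the left at 9.03 and 9.09, and KO library 4AF the highest on the right at 1080.

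Other groups of genes set these values in context. In all of the lists that follow limma and edgeR called 0 genes, so the counts at an unadjusted p and those of DESeq2 are given beside them. They are to be read against all genes tested at an unadjusted limma p under 0.05. In 10-week-old KO 1728 of 15089 were lower and 1202 higher, and in 10-week-old A537T 555 of 15131 and 418. In 30-week-old KO 797 of 14729 were lower and 819 higher, and in 30-week-old A537T 929 of 14789 and 1087. Medians under scaling to the same total are to be read against the shift of all genes, to 0.20 in 10-week-old KO and 0.15 in 10-week-old A537T. Genes that DESeq2 called are named where they are few, a choice made after their values were seen. The 58 nuclear subunits of the respiratory chain and ATP synthase (OXPHOS) lay lower in 10-week-old KO, at a median log2 fold change of -0.90 with 57 of 58 below 0. In 10-week-old A537T the median was -0.51 with 56 of 58 below 0 (-0.69 in KO and -0.37 in A537T when scaled to the same total). At an unadjusted limma p under 0.05, 51 of 58 in KO and 9 of 58 in A537T were lower. DESeq2 called 34 of the 58 lower in 10-week-old KO and 0 in A537T. *Atp5b*, the catalytic subunit of ATP synthase and the most abundant of them, was at 4905 ± 1519 in WT and 3123 ± 542 in KO (log2 fold change -0.62, adjusted p = 0.235, limma), and *Ndufb3*, of complex I, had the smallest p in KO (log2 fold change -1.01, adjusted p = 0.183). The smallest p of the list was that of *Ndufa1*, also of complex I, in 10-week-old A537T (-0.59, adjusted p = 0.746), of *Atp5k*, of ATP synthase, in 30-week-old KO (0.29, adjusted p = 0.438) and of *Cox4i1*, of complex IV, in 30-week-old A537T (-0.28, adjusted p = 0.310). In 12AF the OXPHOS mean stood 0.57 above the mean of WT and that of the 9 genes 0.22 above it, so both groups were high in the library with most muscle RNA and OXPHOS more so. At 30 weeks the OXPHOS medians were 0.00 and -0.07.

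**Figure D5:**
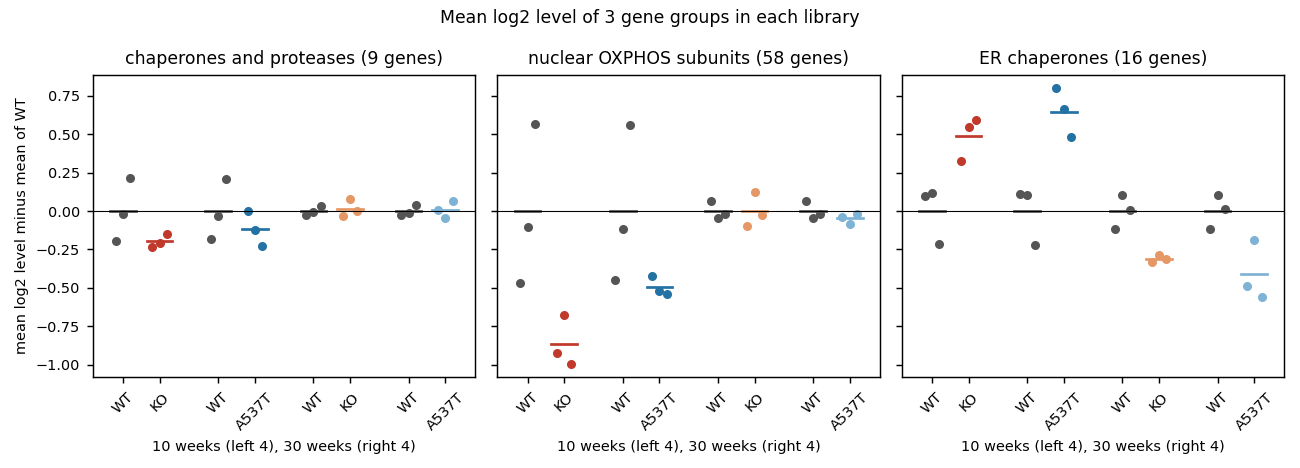
Mean log2 level of each group of genes in each library minus the mean of the WT libraries of its table (vertical axis), 1 point per library with a bar at the mean of 3. In 10-week-old KO the chaperone and protease genes lie at -0.23 to -0.15, OXPHOS subunits at -0.99 to -0.68 and ER chaperones at 0.33 to 0.59; at 30 weeks the genes of the first and second panels lie around 0 and the ER chaperones below it, at -0.56 to -0.19.

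The other chaperones and co-chaperones of mitochondria (14 genes, all tested) had medians of -0.17, -0.20, 0.02 and -0.03 in 10-week-old KO and A537T and 30-week-old KO and A537T (0.04 in the first when scaled to the same total). By unadjusted p 2, 1, 0 and 1 were lower and 0 higher, and DESeq2 called 0. *Trap1*, the mitochondrial HSP90 and the most abundant of them, was at 435 ± 74.4 in 10-week-old WT and 335 ± 13.9 in KO and at 352 ± 27.8 and 373 ± 55.4 at 30 weeks. *Dnajc19*, a partner of mortalin at the import motor, had the smallest p in 10-week-old KO (log2 fold change -0.84, adjusted p = 0.183, limma), *Dnajc15* in 10-week-old A537T (-0.70, adjusted p = 0.746), and *Dnajc30* in both lines at 30 weeks (-0.40, adjusted p = 0.458, and -0.48, adjusted p = 0.318). All of these smallest-p members lay below WT.

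Among 20 other mitochondrial proteases and their regulators, medians were -0.21, -0.10, -0.05 and -0.05 (0.01 and 0.04 at 10 weeks when scaled to the same total). Here 3, 1, 1 and 0 were lower and 0 higher by unadjusted p, and DESeq2 called *Spg7* alone, lower in 30-week-old KO. *Spg7*, the partner of AFG3L2 in the matrix-facing protease, was at 429 ± 68.1 in 30-week-old WT and 274 ± 17.6 in KO, a log2 fold change of -0.64 that did not pass in limma (adjusted p = 0.331). *Phb*, encoding prohibitin, a scaffold that binds these proteases, had the smallest p in 10-week-old KO (log2 fold change -0.74, adjusted p = 0.199), *Htra2* in 10-week-old A537T (-0.49, adjusted p = 0.746) and *Stoml2* in 30-week-old A537T (-0.45, adjusted p = 0.367). *Ghitm*, the most abundant of this list, was at 753 ± 39.0 in 30-week-old WT and 822 ± 75.5 in KO.

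Of 22 genes of mitochondrial protein import, 21 lay below 0 in 10-week-old KO (median -0.33) and 20 in 30-week-old KO (median -0.19), with medians of -0.08 and -0.11 in A537T (-0.12 in 10-week-old KO and 0.06 in 10-week-old A537T when scaled to the same total). At an unadjusted p under 0.05, 8 were lower in 10-week-old KO, 0 in 10-week-old A537T, 3 in 30-week-old KO and 2 in 30-week-old A537T, where 1 was higher, and DESeq2 called *Timm23* alone, lower in 10-week-old KO. *Tomm20*, a receptor of the outer membrane and the most abundant, was at 905 ± 139 in 30-week-old WT and 670 ± 82.5 in KO (log2 fold change -0.43, adjusted p = 0.416, limma). *Tomm5* in 10-week-old KO (-0.78, adjusted p = 0.183), *Timm17a* in 10-week-old A537T (-0.66, adjusted p = 0.746), *Timm13* in 30-week-old KO (-0.40, adjusted p = 0.407) and *Timm21* in 30-week-old A537T (0.91, adjusted p = 0.236) had the smallest p. *Timm21* was thus the single one of these above WT, at 99.1 ± 11.4 against 52.9 ± 10.9.

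The transcription factors linked to the response were then read, singled out for their role after their values had been seen. *Atf4*, the effector of the integrated stress response, was at 829 ± 50.4 in 10-week-old WT and 839 ± 26.6 in KO, and at 718 ± 102 and 795 ± 174 at 30 weeks. *Atf5* was at 99.7 ± 52.8 in 10-week-old WT and 170 ± 30.6 in KO (log2 fold change 0.86, adjusted p = 0.251, limma), and *Ddit3* at 61.5 ± 9.45 in 30-week-old WT and 87.3 ± 9.44 in KO (log2 fold change 0.51, adjusted p = 0.429). Neither passed the adjustment, and *Ddit3* in 10-week-old KO was at 55.8 ± 7.92 against 63.3 ± 12.96. *Cebpb*, read with these factors, was at 32.6 ± 18.3 in 10-week-old WT and 15.7 ± 4.92 in KO (log2 fold change -0.91, adjusted p = 0.319, limma). Its log2 fold change was -0.17 in 10-week-old A537T and 0.45 in 30-week-old KO, and it was not tested in 30-week-old A537T. Without WT library 10AF *Atf5* passed in 10-week-old KO (adjusted p = 0.0226, limma), as did 2840 of all 15089 genes in that refit. In A537T the log2 fold changes of *Atf4*, *Atf5* and *Ddit3* were 0.06, 0.28 and 0.13 at 10 weeks. At 30 weeks they were 0.15, 0.17 and 0.07 (adjusted p between 0.629 and 0.925 over both ages, limma). The whole list of 22 stress response genes, of which 19 or 20 were tested, had medians of 0.03, -0.07, 0.29 and 0.11 (0.24 and 0.07 at 10 weeks when scaled to the same total). Of these 6, 0, 1 and 1 were higher and 3, 1, 2 and 3 lower by unadjusted p. In 10-week-old KO the log2 fold changes of the list ran from -1.96 to 1.43, and *Atf5* was among the 6 higher genes. DESeq2 called *Vldlr* and *Eif4ebp1* lower in 10-week-old KO, *Vldlr* lower in 10-week-old A537T, and 1 gene higher (*Vldlr*) and 1 lower (*Phgdh*) in 30-week-old A537T. Its most abundant gene, *Nupr1*, was at 5388 ± 2271 in 30-week-old WT and 3104 ± 1637 in KO. *Vldlr* had the smallest p in 10-week-old KO and A537T (log2 fold change -1.96, adjusted p = 0.183, and -1.55, adjusted p = 0.746, limma). It also had the smallest p in 30-week-old A537T, where it lay above WT (1.04, adjusted p = 0.153). Its level was 1271 ± 769 in 10-week-old WT and 307 ± 128 in KO, but 95.9 ± 8.64 in 30-week-old WT of the A537T table. The 10-week-old WT libraries were also those with most muscle RNA, and the part of that RNA in the *Vldlr* values was not tested.

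The chaperones of other compartments were read in the same way. Those of the endoplasmic reticulum (16 genes) had medians of 0.46 and 0.62 in 10-week-old KO and A537T and -0.37 and -0.44 at 30 weeks. At an unadjusted p under 0.05, 8 and 12 of 16 were higher at 10 weeks and 10 and 11 lower at 30 weeks, and DESeq2 called 5 and 6 higher and 5 and 5 lower. Their mean log2 level relative to WT was lowest among the 10-week-old WT libraries in 12AF, with most muscle RNA (-0.22, beside 0.10 in 10AF and 0.12 in 11AF), and in 30-week-old A537T it was -0.49 and -0.56 in 7AF and 9AF, which held seminal vesicle RNA, and -0.19 in 8AF, which held almost none. In 30-week-old KO it was -0.33 and -0.31 in 4AF and 6AF and -0.29 in 5AF. Luminal prostate markers, many of which encode secreted proteins, also lay below WT at 30 weeks, 12 of 12 in KO (median -0.58) and 11 of 12 in A537T (median -0.68), with 3 in each at an unadjusted p under 0.05. The part of these tissue differences in the ER values was not tested. *Creld2*, an ER stress gene, was at 578 ± 188 in 10-week-old WT and 1584 ± 318 in KO (log2 fold change 1.48, adjusted p = 0.183, limma) and had the smallest p in 10-week-old A537T too (1.52, adjusted p = 0.746), where *Hspa5*, the ER HSP70 named BiP, was at 7774 ± 509 in WT and 13949 ± 1746 in the mutant (0.84, adjusted p = 0.746). At 30 weeks the smallest p were those of the disulfide isomerases *Pdia6* in KO (-0.50, adjusted p = 0.307) and *Pdia3* in A537T (-0.43, adjusted p = 0.249), both called lower by DESeq2. *P4hb*, a further disulfide isomerase and the most abundant gene of the list in the other comparisons, was at 8789 ± 1917 in 10-week-old WT and 9768 ± 646 in KO, and at 10585 ± 696 in 30-week-old WT against 11665 ± 2373 in KO. Cytosolic heat shock genes (18 genes) had medians of -0.08, 0.30, -0.13 and -0.07 (0.13 in the first when scaled to the same total), and DESeq2 called 2 lower in 10-week-old KO (*Dnajb4* and *Hspb8*), 1 higher in 10-week-old A537T (*Hsp90aa1*) and 0 at 30 weeks. The counts by unadjusted p were 1, 4, 0 and 0 higher and 2, 0, 4 and 0 lower. *Hspa8*, the constitutive cytosolic HSP70, was at 8445 ± 820 in WT and 11359 ± 1679 in 10-week-old A537T, beside *Hspa9* at 1511 ± 374 and 1190 ± 58.8 in the same libraries. *Hsp90aa1* had the smallest p there (log2 fold change 0.62, adjusted p = 0.746), *Dnajb4* in 10-week-old KO (-0.78, adjusted p = 0.183), *Stip1* in 30-week-old KO (-0.37, adjusted p = 0.392) and *Hsp90ab1* in 30-week-old A537T (-0.31, adjusted p = 0.422).

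Regulators of mitochondrial biogenesis (12 genes) had medians of 0.08, -0.01, 0.09 and -0.20 (0.13 in 10-week-old A537T when scaled to the same total). By unadjusted p 2, 0, 1 and 1 were lower and 0 higher, and DESeq2 called *Esrra* alone, lower in 10-week-old KO and in 30-week-old A537T. *Esrra*, encoding the receptor ERRα that drives OXPHOS genes, had the smallest p in 10-week-old KO (244 ± 7.51 in WT and 143 ± 9.05 in KO, log2 fold change -0.77, adjusted p = 0.183, limma), in 30-week-old KO (-0.46, adjusted p = 0.438) and in 30-week-old A537T (-0.78, adjusted p = 0.246). *Gabpb1* had it in 10-week-old A537T (0.39, adjusted p = 0.749), and *Yy1*, the most abundant, was at 540 ± 66.6 in 10-week-old WT and 571 ± 49.5 in KO.

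The change with age in the mutant effect was asked of each gene in a fit over both tables of a line, as the difference of the 30-week from the 10-week log2 fold change. In KO 0 of 9 were called, against 0 of 14295 genes (0%), and in A537T 0 of 9, against 0 of 14292 (0%). At an unadjusted p under 0.05, 0 of 9 passed in KO and 1 of 9 in A537T, beside 12.1% of all genes in each line. That gene was *Yme1l1* in A537T, which went from -0.25 at 10 weeks to 0.20 at 30 weeks, a difference of 0.45 ± 0.16 SE (95% interval 0.09 to 0.81, adjusted p = 0.309, limma). The largest in KO was *Hspa9*, from -0.35 to 0.09, a difference of 0.44 (95% interval -0.03 to 0.91, adjusted p = 0.451), and without WT library 12AF it was 0.25.

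The genes outside the set whose pattern was most like the mean log2 level of the 9 were *Grcc10*, *Mrpl16* (a mitochondrial ribosomal protein), *Serbp1*, *Hspb8* (a small heat shock protein) and *Cetn2*, with a mean Pearson r over the 4 tables of 0.880, 0.870, 0.864, 0.856 and 0.853 among 9989 genes compared. Each r rests on the 6 libraries of a table and the tables of an age share their WT libraries, so this is a description only.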

How the data were processed

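Total RNA of 18 prostate libraries, 3 in each of 6 groups, was sequenced. Per the labels and the methods of the study, the authors trimmed reads (Trim Galore 0.4.1, cutadapt 1.18), aligned them with STAR 2.7.3a to GRCm38.p6, estimated strand-specific gene counts with Salmon and divided them by DESeq2 1.26 size factors. The deposited values are therefore a normalised count signal, in 4 tables of 6 libraries, and 100% of low values were whole multiples (tolerance 0.05) of 1 read. In 4 of 24 columns 1 read is worth close to 1. Further deposited tables hold the authors' own fold changes and s-values and were not used. Column headers give neither a library's group nor its replicate number. The group was read from where a column stands. A column in both tables of an age was taken as WT, and a column in a single table as the mutant of that table.

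Values were tested with limma 3.58.1 (R 4.3.3) on log2(normalised count + 1), genes with a mean of at least 10, Benjamini-Hochberg adjusted p under 0.05, and across ages by an interaction term, which combines tables normalised separately. Alternatives were edgeR 4.0.16 and DESeq2 1.42.0 on recovered reads, pseudocount 8, minimum means of 1 and 100, no mean trend, scaling to the same total, tissue scores as covariates and leaving out each library. The fits were tested on simulated data. Intervals (95%) cover the spread between libraries. Ratios used a two-sided exact permutation test. Of 55469 gene IDs, 55107 were named by ID without version, and GENCODE gene models and RefSeq promoter windows are of GRCm38. The 9 genes, the gene lists and the tests were chosen with earlier results of these data known. Named from each list were the gene with the smallest p in each comparison and the most abundant one (in at least 1 comparison), and the 5 genes most like the set by mean r (mean of at least 50 in every table).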

Additional observations from a re-analysis of the deposited data

Results flagged for a closer look

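*Hspa9* lay below the WT mean in 3 of 3 KO libraries at 10 weeks and above it in 3 of 3 at 30 weeks, a difference of 0.437 on the log2 scale that did not pass the test of the difference (adjusted p = 0.451, limma). *Yme1l1* did the same in A537T, with a difference of 0.450 (adjusted p = 0.309, limma). Both were picked out because every mutant library of 1 age lay on the other side of WT from those of the other age, and no other gene of the 9 did so in either line, or between the lines at 1 age.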

How the results depend on the processing

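No change in any of the 9 genes was called under any alternative tried, and the smallest adjusted p of a gene was 0.0502 (*Hspa9* in 10-week-old KO without 10AF). No paired analysis was possible because the column headers carry no replicate numbers. The number of all genes called by limma, 0 in each comparison, was 715, 90, 285 and 476 with DESeq2 on recovered reads in 10-week-old KO, 10-week-old A537T, 30-week-old KO and 30-week-old A537T, 1 and 2 at 10 weeks without the mean trend, 2 in 10-week-old A537T at a minimum mean of 1 and 3 in 30-week-old A537T with the seminal vesicle score. Leaving out 1 library gave 0 to 2840 genes (most without 10AF), 0 to 49 (10AF), 0 to 936 (5AF) and 0 to 1207 (8AF) in the same order, 0 to 30 (14AF) for the change with age in KO and 0 to 382 (8AF) in A537T. Where a sample was left out, a group of 2 remained and the spread was pooled over both groups. The cause was not tested. Of 36 fold changes given for genes of other lists, 0 turned direction in 498 refits, and 18 passed the threshold in at least 1 of them, 14 with DESeq2.

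Scaling to the same total shifts all genes alike, to a median of 0.20 in 10-week-old KO and 0.15 in 10-week-old A537T. For the change with age in KO it put the median of all genes at -0.186 and that of the 9 at 0.0113. The 9 thus lay 0.197 above all genes, beside 0.199 in the main fit. With the same total in every library the median of the 9 was -0.0168 in 10-week-old KO. Under that shift *Lonp1* (0.085), *Yme1l1* (0.177) and *Afg3l2* (0.121) were above 0 in 10-week-old KO, and *Clpp* (0.0812), *Clpx* (0.072) and *Afg3l2* (0.119) in 10-week-old A537T, each still below the median of all genes. With the muscle score *Clpp* was -0.0315 in 10-week-old KO, and in A537T *Hspa9* was 0.0624, *Lonp1* 0.0524, *Clpp* 0.022, *Clpx* 0.21, *Afg3l2* 0.0726 and *Dnaja3* 0.259. With the seminal vesicle score the 30-week medians were 0.0836 in KO and -0.080 in A537T, with *Hspe1* at 0.218, *Lonp1* at 0.0927 and *Clpx* at 0.0836 in KO and *Hspa9* at -0.181 and *Afg3l2* at -0.0847 in A537T. With edgeR, *Hspd1* was -0.0059 and *Hspe1* -0.0045 in 10-week-old A537T.

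Leaving out 1 library moved the median from -0.11 to 0.057 in 30-week-old KO, -0.032 to 0.082 in 30-week-old A537T, 0.044 to 0.34 for the change with age in KO and -0.013 to 0.21 in A537T. It turned the direction of *Clpp* (-0.032 to 0.064) and *Yme1l1* (-0.10 to 0.023) in 10-week-old KO, of *Hspd1* (-0.089 to 0.15), *Hspe1* (-0.15 to 0.21), *Clpp* (-0.14 to 0.016), *Clpx* (-0.20 to 0.084), *Afg3l2* (-0.082 to 0.057) and *Dnaja3* (-0.34 to 0.0061) in 10-week-old A537T, of *Hspe1* (-0.17 to 0.076), *Lonp1* (-0.081 to 0.048) and *Clpx* (-0.12 to 0.058) in 30-week-old KO and of *Hspd1* (-0.025 to 0.027), *Hspe1* (-0.032 to 0.12), *Hspa9* (-0.047 to 0.15), *Clpp* (-0.061 to 0.31) and *Afg3l2* (-0.041 to 0.13) in 30-week-old A537T.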
